A study of Mus musculus with 12 samples.

Results

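The 10 genes described here encode the 5 DNA-binding subunits of NF-kB (Nfkb1, Nfkb2, Rel, Rela and Relb) and 5 proteins that are usually grouped as its inhibitors (Nfkbia, Nfkbib, Nfkbie, Nfkbiz and Tnfaip3). They were taken by gene symbol from a deposited log2 expression table of 26121 genes, measured by RNA sequencing in dendritic cells sorted from mouse kidneys. All 10 were in the table, and 10 of 10 passed the filter on low values, which asked for at least 1 CPM (read counts scaled to library size) in at least 3 of the 12 libraries and kept 14180 genes. Cells carried the surface protein CD11b or the surface protein CD103, and came from kidneys on day 7 after injection of an antiserum that causes nephrotoxic nephritis (NTN), a model of antibody-driven glomerulonephritis, or from healthy kidneys. The 4 groups were CD11b+ NTN, CD11b+ healthy, CD103+ NTN and CD103+ healthy, with 3 libraries each. All 6 mice were wildtype males aged 8 to 12 weeks, 3 in each state, and both cell populations were sorted from every mouse.

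NF-kB is a family of dimeric transcription factors that inhibitory IkB proteins hold in the cytoplasm. Signals from Toll-like, TNF and interleukin-1 receptors activate a kinase complex that marks IkB proteins for degradation, and the freed dimers switch on cytokine, chemokine and survival genes together with the genes of their own inhibitors. In dendritic cells this pathway accompanies maturation and costimulation, and mice that lack Relb lose some of their dendritic cells. On build GRCm38 (GENCODE M21, matched by Ensembl ID) the subunit genes are Nfkb1 (ENSMUSG00000028163) at chr3:135584655-135691547, Nfkb2 (ENSMUSG00000025225) at chr19:46304320-46312385, Rel (ENSMUSG00000020275) at chr11:23736847-23770970, Rela (ENSMUSG00000024927) at chr19:5637483-5648130 and Relb (ENSMUSG00000002983) at chr7:19606217-19629438. The inhibitor genes are Nfkbia (ENSMUSG00000021025) at chr12:55489410-55492647, Nfkbib (ENSMUSG00000030595) at chr7:28758251-28767512, Nfkbie (ENSMUSG00000023947) at chr17:45555703-45563169, Nfkbiz (ENSMUSG00000035356) at chr16:55811375-55838899 and Tnfaip3 (ENSMUSG00000019850) at chr10:19000910-19015657. RNA levels do not show where the proteins are in the cell or whether they are active.

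The libraries held 11486182 to 26556814 recovered reads, so that 3 reads corresponded to between 0.112 and 0.254 CPM. Labels and sorting antigens went together: Itgae, which encodes CD103, averaged 1034 ± 178 CPM in CD103+ NTN and 91.9 ± 31.7 CPM in CD103+ healthy libraries but 4.82 ± 0.207 and 2.22 ± 0.904 CPM in CD11b+ NTN and CD11b+ healthy libraries (SD, n = 3 each). Itgam, which encodes CD11b, averaged 315 ± 26.5 and 124 ± 8.53 CPM in CD11b+ NTN and CD11b+ healthy libraries, against 6.88 ± 0.375 and 1.75 ± 0.260 CPM in CD103+ NTN and CD103+ healthy libraries. The 9 cDC1 markers summed to 4305 to 5263 CPM in CD103+ NTN and 1088 to 2301 CPM in CD103+ healthy libraries, against 242 to 334 CPM over the 6 CD11b+ libraries. The 8 markers of cDC2, the type that usually carries CD11b, summed to 2886 to 4225 CPM in the CD11b+ libraries, against 39.8 to 106 CPM in the CD103+ libraries. The cDC1 list includes Itgae and the cDC2 list includes Itgam. The 14 macrophage and monocyte markers summed to 5235 to 5944 CPM in CD11b+ NTN and 1865 to 2155 CPM in CD11b+ healthy libraries. In CD103+ NTN and CD103+ healthy libraries they summed to 1353 to 1778 CPM and 350 to 650 CPM. The amount of non-leukocyte RNA differed: 15 kidney tubule markers took 0.362 to 0.621% of reads in CD11b+ NTN, 0.754 to 1.92% in CD11b+ healthy, 0.330 to 0.401% in CD103+ NTN and 3.34 to 5.34% in CD103+ healthy libraries. Averaged over 38 leukocyte genes, log2 CPM was 8.20 to 8.26 in CD11b+ NTN, 7.68 to 7.91 in CD11b+ healthy, 8.00 to 8.08 in CD103+ NTN and 5.91 to 6.97 in CD103+ healthy libraries, lowest in CD103+ healthy library 2. Differences are therefore given both on the deposited scale and after each library was shifted to the same mean of those 38 genes (leukocyte scaling). That shift moved the median difference over all tested genes. For CD103+ NTN against healthy it became -1.43, where the deposited values gave 0.16, and for CD11b+ NTN against healthy -0.34, where they gave 0.08. For CD11b+ against CD103+ healthy it became -1.34, where they gave 0.02, and for CD11b+ against CD103+ NTN -0.17, where they gave 0.01.

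Stretches upstream of the start sites are shown because several of these genes are textbook targets of NF-kB itself. RefSeq windows of 250 bases before the start (build GRCm38.p6) were at hand for 7 of the 10 genes, in 10 windows. The 10-letter kappaB consensus, searched on both strands, was found for 5 genes in 7 of these windows, and in 3.9% of 32851 windows of 27025 genes. Some windows reach into annotated exons of GENCODE M21, which cover 250, 167 and 234 bases of Nfkb2 windows 1, 2 and 3. Such exons cover 133 bases of the Nfkbib window, 110 of Tnfaip3 window 1, 58 of the Rela window and 1 of the Rel window. Windows 2 and 3 of Nfkb2 overlap each other. The windows of Nfkbia and Nfkbie, the genes of IkB alpha and IkB epsilon, are printed 5′ to 3′ on the gene's strand with the match in capitals. Nfkbia lies at chr12:55492648-55492897 on the minus strand and Nfkbie at chr17:45555450-45555699 on the plus strand.
Nfkbia: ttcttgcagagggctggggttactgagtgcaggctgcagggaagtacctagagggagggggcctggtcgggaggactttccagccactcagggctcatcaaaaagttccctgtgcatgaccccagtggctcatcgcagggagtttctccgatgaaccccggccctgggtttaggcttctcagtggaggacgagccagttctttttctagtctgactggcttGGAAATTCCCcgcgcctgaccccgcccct
Nfkbie: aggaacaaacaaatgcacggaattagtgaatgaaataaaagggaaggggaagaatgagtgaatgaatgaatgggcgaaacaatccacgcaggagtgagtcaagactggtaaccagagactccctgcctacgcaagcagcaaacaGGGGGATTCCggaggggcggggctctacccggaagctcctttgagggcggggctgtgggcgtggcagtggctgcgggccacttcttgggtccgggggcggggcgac
The Nfkbia match lies at positions -29 to -20 from the start, read on the opposite strand, and the Nfkbie match at -106 to -97. Rel held GGGAAATCCC at -92 to -83, which matches on both strands and overlaps a further match 1 base downstream. Tnfaip3 held GGGACACCCC at -125 to -116 and GGAAATCCCC at -12 to -3, where the second is read on the opposite strand. Nfkb2 held GGGAATTCCC at -39 to -30, GGGGCTTTCC at -11 to -2 and, in windows of its other start sites, GGAATGTCCC and GGGACTTTCC. Rela and Nfkbib had windows without these letters. A match describes the sequence and says nothing about binding in these cells.

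Per kilobase of exon, Nfkbia was the most abundant of the 10 in every group, at 212 ± 4.90 CPM per kb in CD11b+ NTN, 485 ± 55.4 in CD11b+ healthy, 90.3 ± 6.90 in CD103+ NTN and 57.1 ± 19.7 in CD103+ healthy libraries (SD, n = 3 each). Nfkb2 and Relb, the partners of the noncanonical NF-kB branch, were the lowest in every group, with Nfkb2 at 0.777 to 3.37 and Relb at 0.841 to 3.63 CPM per kb over the group means. Among the subunits, Rela, the main activating subunit of the classical dimer, made up 38.0 ± 7.91% of the summed subunit level per kb in CD11b+ NTN, 38.6 ± 4.59% in CD11b+ healthy, 37.7 ± 3.13% in CD103+ NTN and 56.3 ± 5.81% in CD103+ healthy libraries. The share of Rel, the subunit c-Rel that serves cytokine genes in dendritic cells, was 27.4 ± 9.96%, 21.8 ± 4.85%, 38.5 ± 2.94% and 21.9 ± 5.27% in the same groups. These shares do not depend on library scaling, though RNA of other cells can enter them.

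Across the group means on the deposited scale, CPM of the inhibitors ranged more widely than CPM of the subunits, with 1 exception among the inhibitors. The highest group mean was 14.2 times the lowest for Nfkbiz, 9.88 times for Tnfaip3, 8.48 times for Nfkbia and 8.37 times for Nfkbie, but 2.50 times for Nfkbib. For the subunits it was 5.14 times for Nfkb1, 4.33 for Nfkb2, 4.31 for Relb, 4.19 for Rel and 1.99 for Rela. CD103+ healthy was the lowest group for 9 of the 10, and CD103+ NTN was the lowest for Nfkbib. By group mean, CD11b+ NTN was highest for Nfkb1, Rela, Nfkbie and Tnfaip3, CD11b+ healthy was highest for Nfkb2, Relb, Nfkbia, Nfkbib and Nfkbiz, and CD103+ NTN was highest for Rel. CD11b+ NTN and CD11b+ healthy libraries overlapped for Nfkb1, Rel, Rela, Relb and Nfkbie. CD103+ NTN and CD11b+ NTN libraries overlapped for Rel and Nfkbib. The order of these neighbours is not set. Within the CD11b+ groups the spread was widest for Rel, with 205, 153 and 75.8 CPM in the 3 CD11b+ NTN libraries. Rel spread as widely in CD103+ healthy libraries, with an SD of log2 CPM of 0.74 in either group.

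**Figure D1:**
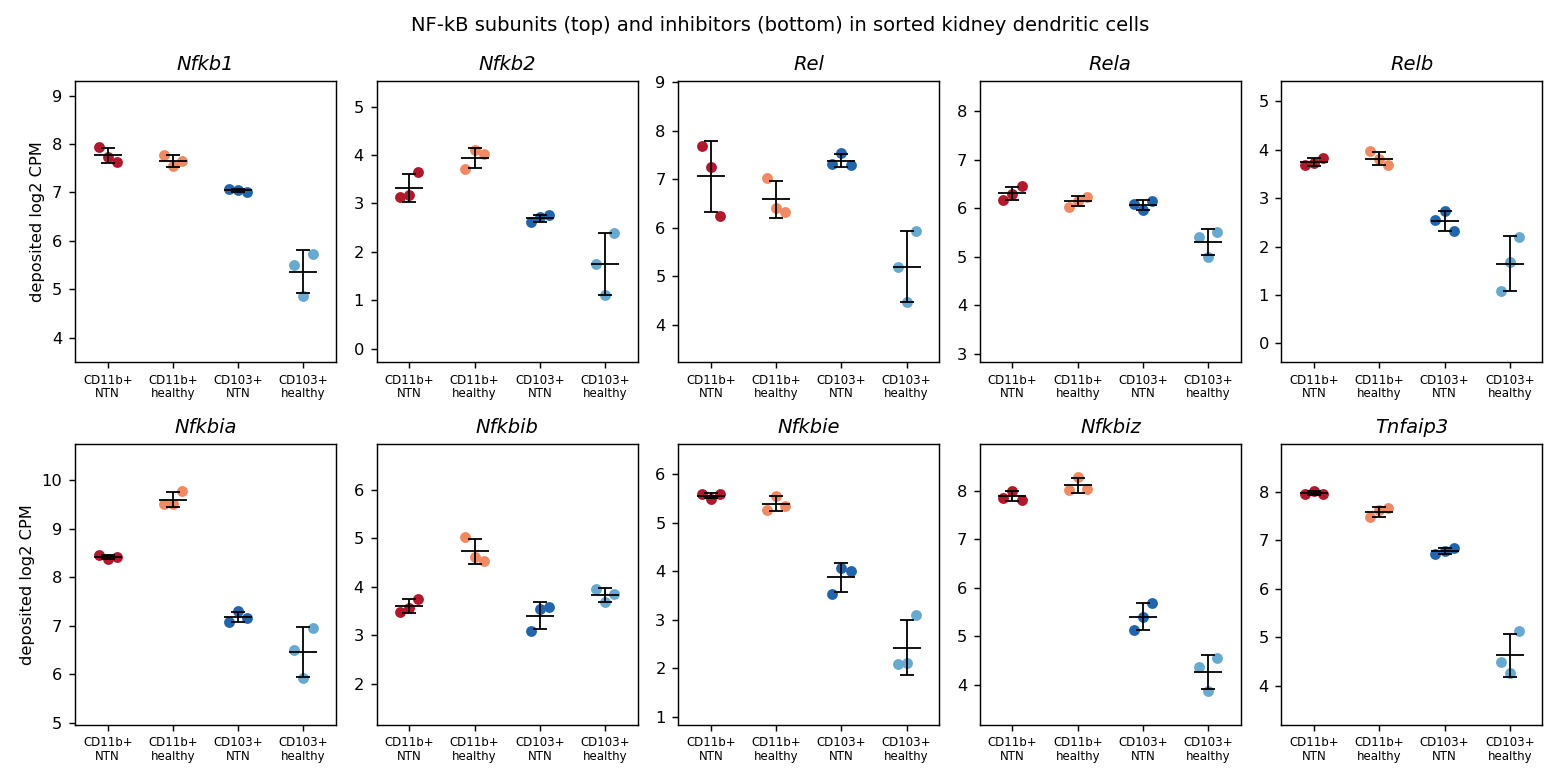
Deposited log2 CPM of the 10 genes (vertical axis, every panel spanning the same number of log2 units) in CD11b+ NTN, CD11b+ healthy, CD103+ NTN and CD103+ healthy libraries; points are libraries, bars are mean and SD (n = 3). On this scale CD103+ healthy libraries are lowest for every gene but Nfkbib, and Nfkbia and Nfkbib stand lower in CD11b+ NTN than in CD11b+ healthy libraries.

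In CD103+ cells, 9 of the 10 genes rose in nephritis on the deposited scale, but with leukocyte scaling 1 was higher and 5 were lower. The background was 34.6% of all tested genes higher and 27.8% lower as deposited, and 2.67% and 71.3% with leukocyte scaling. A gene was called at an adjusted p under 0.05 in limma, adjusted by Benjamini and Hochberg's method over the 14180 genes. The median log2 difference of the 10 was 1.04, against 0.16 over all genes, and -0.55 with leukocyte scaling, against -1.43. In 9 genes every NTN library lay above every healthy one and in 1 below, against 37.6% and 30.9% of all tested genes. In sorted bulk RNA, fewer cells of a type and less RNA per cell cannot be told apart. Beside these calls, all 15 tubule markers were lower in CD103+ NTN, with summed levels of 3590 to 4210 CPM in NTN and 31880 to 50600 CPM in healthy libraries and none at 0 reads. Of 38 leukocyte genes 36 were higher, with summed levels over 39 genes of 21117 to 22992 CPM in NTN and 4375 to 9388 CPM in healthy libraries and none at 0. T cell markers were higher for 11 of 12, at 368 to 445 CPM in NTN and 127 to 214 CPM in healthy libraries, and NK cell markers for 7 of 8, at 202 to 237 CPM in NTN and 55.0 to 87.7 CPM in healthy libraries, with none at 0. Immediate-early and dissociation stress genes were higher for 6 of 20 and lower for 3, at 7895 to 9343 CPM in NTN and 3498 to 6847 CPM in healthy libraries, and macrophage and monocyte markers higher for 4 of 14 and lower for 3, at 1353 to 1778 CPM in NTN and 350.2 to 650 CPM in healthy libraries, with none at 0. The part of these markers in the results was not tested.

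Tnfaip3, whose product A20 edits ubiquitin chains and shuts signalling down upstream of NF-kB, was the one gene called higher under both scalings. It had 106, 109.6 and 115 CPM in CD103+ NTN libraries, against 22.4, 19.2 and 34.9 CPM in CD103+ healthy libraries. Every NTN library lay above every healthy one, by 2.16 ± 0.18 log2 units (SE), or 4.46-fold (limma adjusted p = 3.94e-07), and by 0.57 ± 0.18 with leukocyte scaling (adjusted p = 0.0104).

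Rel stood at 159, 186 and 157 CPM in CD103+ NTN libraries, against 36.5, 22.0 and 61.5 CPM in CD103+ healthy libraries. The groups did not overlap, and the difference of 2.18 ± 0.38 (limma adjusted p = 0.000326) was the largest of the 10 on the deposited scale, though it was 0.60 ± 0.31 with leukocyte scaling and no longer passed (adjusted p = 0.0984). Nfkb1, whose precursor protein is cut to the DNA-binding partner of Rela, had 134, 133 and 128 CPM in CD103+ NTN libraries, against 44.9, 29.2 and 53.3 CPM in CD103+ healthy libraries. Its NTN libraries lay close together and all higher, with a difference of 1.68 ± 0.18 (limma adjusted p = 3.77e-06) that was 0.09 ± 0.18 with leukocyte scaling (adjusted p = 0.669).

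The other subunits, Nfkbia, Nfkbie and Nfkbiz changed sign with the scaling. Rela, Relb, Nfkb2 and Nfkbia were higher in CD103+ NTN by 0.77 ± 0.15, 0.88 ± 0.27, 0.94 ± 0.29 and 0.72 ± 0.20 as deposited and lower by -0.82, -0.71, -0.65 and -0.87 with leukocyte scaling, called each way (limma adjusted p at most 0.0123 as deposited and at most 0.0483 scaled). The call for Nfkb2, which rests on 47 to 86 reads per CD103+ healthy library, was lost without CD103+ healthy library 2 (0.62, adjusted p = 0.0583). Nfkbie and Nfkbiz were higher by 1.45 ± 0.25 and 1.14 ± 0.18 as deposited and stood at -0.14 and -0.45, not called, with leukocyte scaling.

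Nfkbib, the gene of IkB beta, had the one difference below 0 on the deposited scale, and it did not pass there. It had 8.43, 11.7 and 12.0 CPM in CD103+ NTN libraries, against 15.6, 12.8 and 14.4 CPM in CD103+ healthy libraries. All NTN libraries lay below all healthy ones, by -0.42 ± 0.20 on the deposited scale (limma adjusted p = 0.0792) and by -2.01 ± 0.27 with leukocyte scaling (adjusted p = 1.93e-05). Of its exon bases 16.4% overlap genes on the other strand (Ccer2 and Sirt2), as do 18.1% of those of Nfkb2 (Psd and AC114539.1), and no source used here says whether reads were counted by strand.

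In CD11b+ cells, Nfkbia and Nfkbib fell in nephritis and none of the 10 genes was called higher, against 15.8% of all tested genes lower and 20.1% higher. The median difference of the 10 was 0.02, against 0.08 over all genes. With leukocyte scaling it was -0.39, against -0.34, and 4 genes were lower and none higher, against 20.3% and 4.70% of all genes. At an unadjusted p under 0.05 in limma, Tnfaip3 was the only one of the 10 that was higher. In 1 gene every NTN library lay above every healthy one and in 4 below, against 28.2% and 22.9% of all tested genes.

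Nfkbia encodes IkB alpha, the inhibitor that is degraded first and made anew as feedback. Its levels were 350, 334 and 342 CPM in CD11b+ NTN libraries, against 731, 726 and 883 CPM in CD11b+ healthy libraries. The NTN libraries lay tightly together and far below the healthy ones, 2.27-fold lower on average, at -1.19 ± 0.20 (limma adjusted p = 0.000564) and at -1.60 ± 0.17 with leukocyte scaling (adjusted p = 4.52e-05).

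Nfkbib had 11.1, 11.8 and 13.5 CPM in CD11b+ NTN libraries, against 32.7, 24.5 and 23.2 CPM in CD11b+ healthy libraries. The groups were well apart, 2.19-fold on average, with a difference of -1.13 ± 0.20 (limma adjusted p = 0.000759) and of -1.55 ± 0.27 with leukocyte scaling (adjusted p = 0.0013). Both calls held without any single library.

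For 3 further genes the CD11b+ groups did not overlap but the test was not passed on the deposited scale. Nfkb2 had 8.72, 9.03 and 12.5 CPM in NTN, against 13.1, 17.1 and 16.1 CPM in healthy libraries (-0.62 ± 0.29, limma adjusted p = 0.112; -1.04 ± 0.27 with leukocyte scaling, adjusted p = 0.0112). Nfkbiz, which encodes the nuclear protein IkB zeta and is known more as a coactivator of a subset of NF-kB targets than as an inhibitor, had 230, 256 and 225 CPM in NTN, against 258, 311 and 262 CPM in healthy libraries (-0.22 ± 0.18, limma adjusted p = 0.359; -0.64 ± 0.20 with leukocyte scaling, adjusted p = 0.0328). Tnfaip3 had 247, 259 and 250.0 CPM in NTN, against 178, 198 and 204 CPM in healthy libraries.

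The Tnfaip3 difference in CD11b+ cells was 0.39 ± 0.18 (limma adjusted p = 0.101) and -0.03 with leukocyte scaling. On the deposited scale it passed without CD103+ healthy library 2 (adjusted p = 0.0458) or library 3 (adjusted p = 0.0113), which enter only through the shared estimate of the spread, and in a fit of the CD11b+ groups alone (adjusted p = 0.0177), where Nfkb2 passed too (adjusted p = 0.0488). Nfkb1, Rel, Rela, Relb and Nfkbie lay between -0.07 and 0.48, with overlapping libraries and adjusted p from 0.352 to 0.865. With leukocyte scaling they lay between -0.49 and 0.06, none called, and Nfkb1, Rela and Nfkbie changed sign.

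Other cell markers differed between the CD11b+ groups too, and their part in these differences was not tested. Of 20 immediate-early and dissociation stress genes 12 were lower and 0 higher in NTN, with summed levels of 11655 to 12938 CPM in NTN and 14706 to 15400 CPM in healthy libraries and none at 0 reads. Macrophage and monocyte markers were higher for 10 of 14 and lower for 1, with 5235 to 5944 CPM in NTN and 1865 to 2155 CPM in healthy libraries and none at 0. B cell markers were lower for 6 of 7 tested, with 54.5 to 74.1 CPM in NTN and 172 to 298 CPM in healthy libraries, and T cell markers were lower for 8 of 12 and higher for 1, with 426 to 539 CPM in NTN and 589 to 832 CPM in healthy libraries; none of either list was at 0. Tubule markers were lower for 9 of 15, with 3671 to 6176 CPM in NTN and 7321 to 18779 CPM in healthy libraries and none at 0. NK cell markers were lower for 3 of 8 and higher for 1, with 159 to 185 CPM in NTN and 329 to 354 CPM in healthy libraries and none at 0. Neutrophil markers were higher for 3 of 6 tested and lower for 0, with 161 to 260 CPM in NTN and 62.4 to 131 CPM in healthy libraries and Ly6g at 0 in both.

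**Figure D2:**
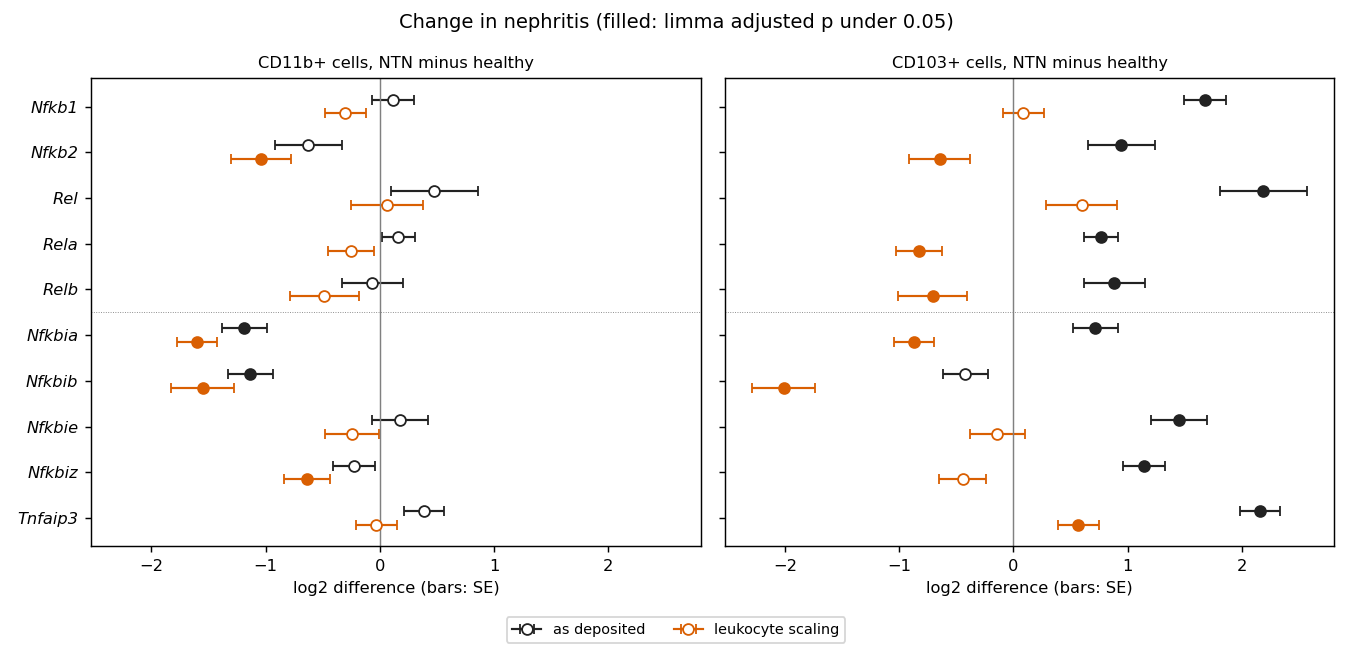
Log2 difference, NTN minus healthy, of the 10 genes (rows; subunits above the dotted line, inhibitors below) in CD11b+ cells (left) and CD103+ cells (right), on the deposited scale (black) and with leukocyte scaling (orange); bars are SE and filled points have a limma adjusted p under 0.05. On the deposited scale 9 genes are called higher in CD103+ cells, of which Tnfaip3 alone is also called higher with leukocyte scaling and Nfkb2, Rela, Relb and Nfkbia are called lower with it; Nfkbia and Nfkbib are lower in CD11b+ cells on both scales.

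The response of the CD11b+ cells minus that of the CD103+ cells, tested in the same fit, was below 0 and called for 8 of the 10 genes, against 17.7% of all tested genes lower and 17.7% higher. With leukocyte scaling 1 of the 10 was called lower, against 1.41% of all genes lower and 44.0% higher. That gene was Nfkbia, whose difference of responses was -1.90 ± 0.28 as deposited (limma adjusted p = 0.000498) and -0.73 ± 0.25 with leukocyte scaling (adjusted p = 0.0277). It had fallen in CD11b+ cells on both scales, and in CD103+ cells its sign depended on the scaling. The median of the 10 was -1.47 as deposited, against -0.07 over all genes. Of 38 leukocyte genes 27 were lower and 0 higher, with a median of -1.27. T cell markers were lower for 12 of 12 and stress genes for 13 of 20, with 0 higher in either list. Tubule markers were higher for 13 of 15 and lower for 0. Macrophage and monocyte markers were higher for 8 of 14 and lower for 2. The part of these markers in the difference of responses was not tested.

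Tnfaip3, Nfkb1, Nfkb2, Nfkbiz and Nfkbie differed by -1.77, -1.56, -1.57, -1.37 and -1.27 as deposited (limma adjusted p from 0.000398 to 0.0127) and by -0.60, -0.39, -0.40, -0.20 and -0.10, not called, with leukocyte scaling. Rel differed by -1.71 ± 0.54 (adjusted p = 0.0283) and lost the call without CD103+ NTN library 2 (-1.63), CD103+ healthy library 2 (-1.34), CD11b+ NTN library 3 (-1.30) or CD11b+ healthy library 1 (-1.49). Rela differed by -0.60 ± 0.21 (adjusted p = 0.0376), a value that turned to 0.57 with leukocyte scaling (adjusted p = 0.111) and kept its call in 5 of 12 fits that left out 1 library. With no filter on low values neither Rel (limma adjusted p = 0.0502) nor Rela (0.0743) passed. Nfkbib (-0.71 ± 0.28, adjusted p = 0.0625) and Relb (-0.95 ± 0.38, adjusted p = 0.0641) did not pass, and stood at 0.46 and 0.22 with leukocyte scaling. As deposited, Nfkbib passed without CD103+ NTN library 1 (-0.88) or CD11b+ healthy library 3 (-0.81), and Relb without CD103+ healthy library 3 (-1.22). Nfkbib also passed with a pseudocount of 4 CPM (limma adjusted p = 0.0396) and with median centring (0.0419).

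Between the subsets of healthy kidneys, all 10 genes were higher in CD11b+ than in CD103+ cells on the deposited scale, against 25.4% of all tested genes higher and 24.5% lower. With leukocyte scaling 7 stayed higher and Rela was called lower, against 4.65% of all genes higher and 71.2% lower. Medians of the 10 were 2.24 and, scaled, 0.88, against 0.02 and -1.34 over all genes. Every CD11b+ library lay above every CD103+ library for each of the 10, which held for 26.6% of all tested genes, while 26.8% lay the other way. Tubule markers were lower for 13 of 15 in the CD11b+ cells, at 7321 to 18779 CPM against 31880 to 50600 CPM in CD103+ cells. Immediate-early and dissociation stress genes were higher for 17 of 20, at 14706 to 15400 CPM in CD11b+ and 3498 to 6847 CPM in CD103+ cells, and T cell markers for 12 of 12, at 589 to 832 CPM and 127 to 214 CPM in the same groups, with no gene of these 3 lists at 0. Macrophage and monocyte markers were higher for 10 of 14 and lower for 1, and B cell markers for 7 of 7 tested, with Pax5 at 0 in CD103+ cells. NK cell markers were higher for 8 of 8, at 329 to 354 CPM in CD11b+ and 55.0 to 87.7 CPM in CD103+ cells. Neutrophil markers were higher for 6 of 6 tested, at 62.4 to 131 CPM in CD11b+ and 0.534 to 2.68 CPM in CD103+ cells. Among them Ly6g had 0 reads in CD11b+ cells. The part of all these markers in the differences was not tested.

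Nfkbiz led, with 258, 311 and 262 CPM in CD11b+ healthy libraries against 20.6, 14.5 and 23.4 CPM in CD103+ healthy libraries. The groups were far apart on either scale, at 3.85 ± 0.18 as deposited (limma adjusted p = 4.21e-09) and 2.49 ± 0.20 with leukocyte scaling (adjusted p = 8.81e-07). Nfkbia, Nfkbie and Tnfaip3 followed at 3.14, 2.97 and 2.96 as deposited and 1.78, 1.61 and 1.60 scaled, all called on both scales. Among the subunits, Nfkb1, Nfkb2 and Relb were higher by 2.29, 2.19 and 2.17, and by 0.93, 0.83 and 0.81 with leukocyte scaling, again called both ways (adjusted p at most 0.0268).

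The remaining 3 did not keep their calls. Rel was higher by 1.39 ± 0.38 as deposited (limma adjusted p = 0.00986), by 1.02 without CD103+ healthy library 2 (adjusted p = 0.0551) and by 0.03 with leukocyte scaling. Rela was higher by 0.84 ± 0.15 as deposited (adjusted p = 0.000429) and lower, at -0.52 ± 0.20, with leukocyte scaling (adjusted p = 0.0296). Nfkbib was higher by 0.90 ± 0.20 as deposited (adjusted p = 0.00214) and stood at -0.46 ± 0.27, not called, with leukocyte scaling.

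In nephritic kidneys 0 of 15 tubule markers differed between the subsets, and the scaling moved fewer calls. CD11b+ cells had higher levels of 6 of the 10 genes, against 9.66% of all tested genes higher and 8.21% lower, and of 5 with leukocyte scaling, against 5.52% and 7.28%. None of the 10 was called lower on either scale. In 8 genes every CD11b+ library lay above every CD103+ library and in 0 below, against 21.7% and 21.5% of all tested genes. The median difference was 0.96, and 0.77 scaled, against 0.01 and -0.17 over all genes.

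Nfkbiz led here as well, with 230, 256 and 225 CPM in CD11b+ NTN libraries against 34.8, 42.3 and 51.3 CPM in CD103+ NTN libraries. The CD11b+ libraries were all several times higher, 5.59-fold on average, at 2.48 ± 0.18 (limma adjusted p = 3.17e-07) and 2.30 ± 0.20 with leukocyte scaling (adjusted p = 1.57e-06). Nfkbie, the gene of IkB epsilon, had 48.3, 45.3 and 48.5 CPM in CD11b+ NTN libraries against 11.6, 16.9 and 16.1 CPM in CD103+ NTN libraries. The groups did not overlap, with a difference of 1.69 ± 0.25 (adjusted p = 0.000201) and of 1.50 ± 0.24 with leukocyte scaling (adjusted p = 0.000501).

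Nfkbia, Relb and Tnfaip3 were higher in CD11b+ NTN by 1.24 ± 0.20, 1.21 ± 0.27 and 1.19 ± 0.18 on the deposited scale and by 1.05, 1.03 and 1.01 with leukocyte scaling, called on both (limma adjusted p at most 0.00497 and at most 0.0380). Relb, for which dendritic cell development in mice is known to have a need, had 12.8, 13.2 and 14.3 CPM in CD11b+ NTN libraries against 5.80, 6.61 and 4.98 CPM in CD103+ NTN libraries, without overlap. Nfkb1 was higher by 0.72 ± 0.18 as deposited (adjusted p = 0.012), but not with leukocyte scaling (0.54, adjusted p = 0.065) or without CD11b+ NTN library 1 (0.64, adjusted p = 0.0606).

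Nfkb2, Rela, Nfkbib and Rel stood at 0.62 ± 0.29, 0.24 ± 0.15, 0.19 ± 0.20 and -0.32 ± 0.38 and were not called on either scale, though Nfkb2 passed in a fit of the NTN groups alone (limma adjusted p = 0.0329). Rel was the one gene with a higher mean in CD103+ NTN cells, and its 159, 186 and 157 CPM there lay within the range of the CD11b+ NTN libraries. Without CD11b+ NTN library 3 its difference was 0.09. Myeloid markers moved with the subsets: macrophage and monocyte markers were higher in CD11b+ NTN for 11 of 14, with summed levels of 5235 to 5944 CPM in CD11b+ NTN and 1353 to 1778 CPM in CD103+ NTN and none at 0 reads. Immediate-early and dissociation stress genes were higher for 8 of 20 and lower for 0, with 11655 to 12938 CPM in CD11b+ NTN and 7895 to 9343 CPM in CD103+ NTN and none at 0. Neutrophil markers were higher for 6 of 6 tested, with 161 to 260 CPM in CD11b+ NTN and 0.624 to 1.62 CPM in CD103+ NTN, while Ly6g had 0 reads in both groups and Cxcr2 had 0 in CD103+ NTN. The part of these markers in the differences was not tested.

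**Figure D3:**
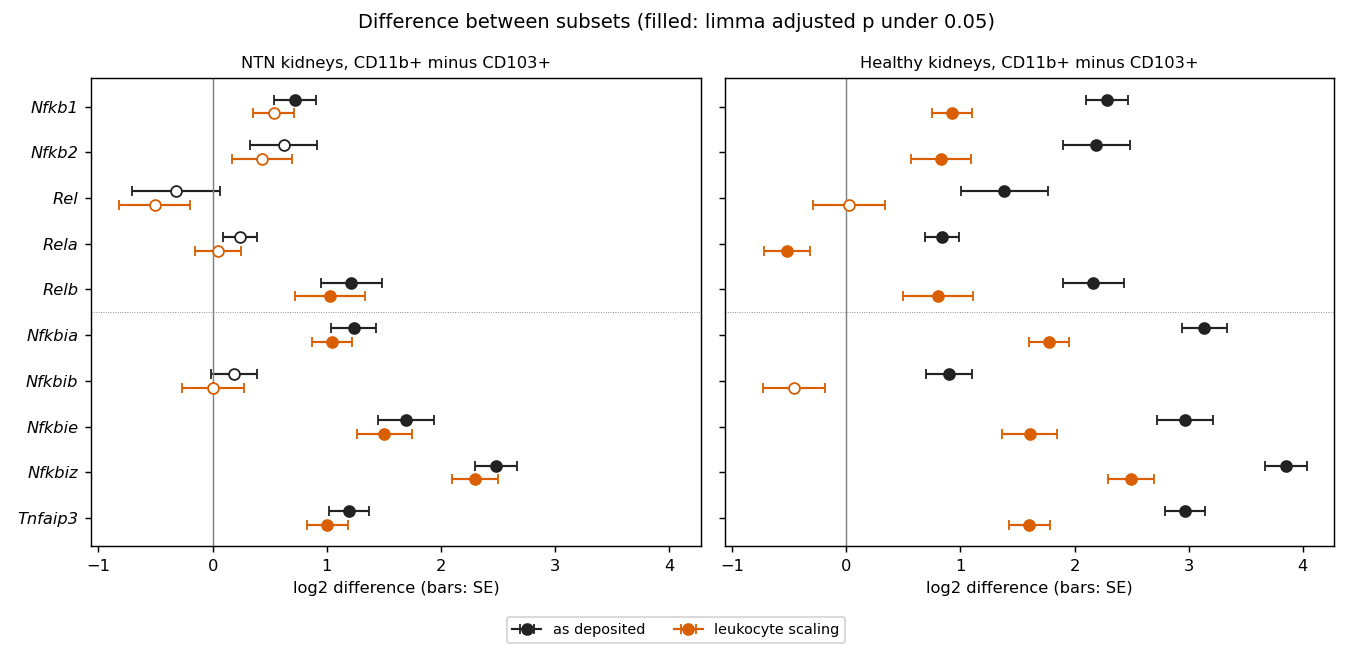
Log2 difference, CD11b+ minus CD103+, of the 10 genes (rows) in NTN kidneys (left) and healthy kidneys (right), on the deposited scale (black) and with leukocyte scaling (orange); bars are SE and filled points have a limma adjusted p under 0.05. Nfkbiz lies farthest to the right on both scales in both panels, at 2.48 in NTN and 3.85 in healthy kidneys as deposited, whereas Rela in healthy kidneys changes sign between the scales.

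A difference between 2 genes of the same library does not move with library scaling, so log2 CPM of each gene was also taken minus that of Rela, and Nfkb2 minus Nfkb1. The values are not corrected for gene length, so they are compared between groups and not between genes. With 3 libraries against 3 an exact two-sided permutation test cannot go below p = 0.1, and over the 40 tests made no adjusted value was below 0.167, so these are descriptions. RNA of other cells can still enter such a difference. Tubule markers took 3.34 to 5.34% of reads in CD103+ healthy libraries, against 0.330 to 0.401% in CD103+ NTN libraries. The part of that RNA in these differences was not tested. Tnfaip3 minus Rela was 0.64 to 0.81 in CD103+ NTN and -0.91 to -0.39 in CD103+ healthy libraries, and Nfkb1 minus Rela was 0.84 to 1.09 and -0.13 to 0.22 in the same groups. Rel minus Rela was 1.14 to 1.57 in CD103+ NTN and -0.54 to 0.43 in CD103+ healthy libraries. For these 3 genes the NTN libraries all lay higher, while for Nfkb2, Relb, Nfkbia, Nfkbie and Nfkbiz minus Rela the groups overlapped. Such differences were not computed over all genes, so no background share is known for them. For single genes on the deposited scale, every NTN library lay above every healthy one in 37.6% of tested genes. Nfkbia minus Rela had means of 1.11 ± 0.19 in NTN and 1.16 ± 0.26 in healthy libraries.

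Nfkbia minus Rela was 1.96 to 2.28 in CD11b+ NTN and 3.34 to 3.54 in CD11b+ healthy libraries. Nfkb2 and Nfkbiz minus Rela also lay lower in CD11b+ NTN without overlap, with differences of group means of -0.79 and -0.39. Tnfaip3 minus Rela lay higher there without overlap, at 1.51 to 1.78 in NTN and 1.43 to 1.47 in healthy libraries. For Nfkb1, Rel, Relb and Nfkbie minus Rela the CD11b+ groups overlapped. Nfkbib minus Rela was -2.74 to -2.69 in CD11b+ NTN and -1.70 to -0.999 in CD11b+ healthy libraries, and -3.01 to -2.41 in CD103+ NTN and -1.67 to -1.32 in CD103+ healthy libraries. In both subsets the NTN libraries lay below the healthy ones without overlap, with differences of group means of -1.30 in CD11b+ and -1.19 in CD103+ cells. Nfkb2 minus Nfkb1 was -4.45 to -4.25 in CD103+ NTN and -3.76 to -3.35 in CD103+ healthy libraries. In CD11b+ cells it was -4.80 to -3.98 in NTN and -4.06 to -3.44 in healthy libraries, with overlap. The differences of group means were alike, at -0.73 in CD103+ and -0.74 in CD11b+ cells. Between subsets, Nfkbiz minus Rela was 1.36 to 1.71 in CD11b+ NTN against -0.97 to -0.48 in CD103+ NTN libraries, and 1.79 to 2.12 in CD11b+ healthy against -1.14 to -0.96 in CD103+ healthy libraries.

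**Figure D4:**
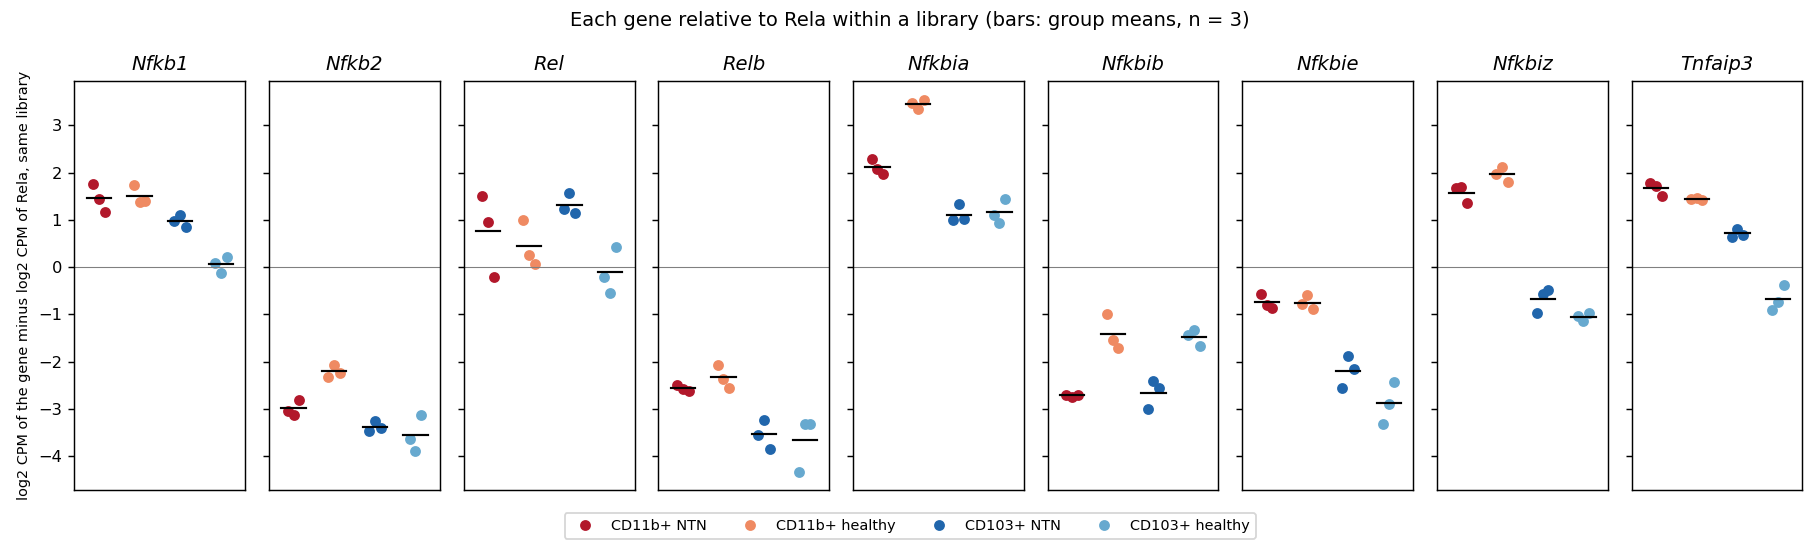
Log2 CPM of 9 genes minus log2 CPM of Rela in the same library (vertical axis), in CD11b+ NTN, CD11b+ healthy, CD103+ NTN and CD103+ healthy libraries; points are libraries and bars are group means (n = 3). Tnfaip3 lies at 0.64 to 0.81 in CD103+ NTN and at -0.91 to -0.39 in CD103+ healthy libraries, and Nfkbib is lower in NTN than in healthy libraries of both subsets.

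The rest of the pathway was described by 5 lists, whose counts stand beside the share of all tested genes in the same comparison. In CD103+ cells in nephritis, 10 of 11 genes of the IkB kinase complex and its upstream kinases, 15 of 19 signalling adaptors and 16 of 22 activating receptors were higher on the deposited scale, with medians of 0.94 and 0.89 for the first 2 lists. With leukocyte scaling these counts were 0, 0 and 3 higher against 6, 9 and 6 lower. Over all genes 34.6% were higher and 27.8% lower, with a median of 0.16, and scaled 2.67% and 71.3%. Clec7a, the receptor Dectin-1 for fungal glucans, was higher by 2.76 ± 0.25 as deposited (limma adjusted p = 9.79e-07) and by 1.17 scaled (adjusted p = 0.0032). Its mean was 22.4 CPM in CD103+ NTN and 3.41 CPM in CD103+ healthy libraries, against 533 CPM in CD11b+ NTN and 109 CPM in CD11b+ healthy libraries. Of 20 further IkB family and restraining genes 8 were higher and 2 lower (median 0.49), and of 35 tested target genes 17 were higher and 4 lower (median 1.05). Scaled, the counts were 0 and 12 for the restraining genes and 2 and 16 for the targets. Irf1, an interferon-pathway transcription factor, was higher by 1.63 ± 0.15 as deposited (adjusted p = 1.21e-06) and by 0.04, not called, scaled. Sod2, the mitochondrial superoxide dismutase, was lower on both scales, by -1.67 ± 0.15 and -3.26. Its mean was 78.3 CPM in CD103+ NTN and 251 CPM in CD103+ healthy libraries. In CD11b+ NTN and CD11b+ healthy libraries its mean was 87.0 and 110 CPM. All 15 tubule markers were lower in CD103+ NTN too, and their part in the Sod2 difference was not tested.

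In CD11b+ cells in nephritis, 5 of 11 kinase genes were higher and 0 lower, 7 of 19 adaptors were higher and 1 lower, and 9 of 22 receptors were higher and 3 lower. Scaled, the counts were 1 and 0, 0 and 2, and 4 and 4. Over all genes 20.1% were higher and 15.8% lower, and scaled 4.70% and 20.3%. Tab1, an activating partner of the kinase TAK1, had 45.4 ± 5.28 CPM in CD11b+ NTN and 16.1 ± 2.42 CPM in CD11b+ healthy libraries (1.50 ± 0.16, limma adjusted p = 2.67e-05; 1.09 scaled, adjusted p = 0.0127). Tradd, an adaptor of TNF receptors, was lower by -1.69 ± 0.32 (adjusted p = 0.00131; -2.11 scaled). Of the 20 further IkB family and restraining genes 3 were higher and 5 lower, and Tnip2, which binds A20, was higher by 1.68 ± 0.19 (adjusted p = 3.75e-05; 1.26 scaled). Of 35 tested target genes 17 were higher and 3 lower, or 12 and 7 scaled. Plaur, the urokinase receptor, was higher by 1.79 ± 0.24 (1.38 scaled), and Ccr7, the homing receptor of migrating dendritic cells, was lower by -1.73 ± 0.15 (-2.15 scaled). Without CD103+ healthy library 3 the count of lower targets was 5, without CD11b+ healthy library 3 that of higher receptors was 4, and without CD11b+ healthy library 1 that of lower restraining genes was 3.

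Between the subsets, CD11b+ NTN cells were higher than CD103+ NTN cells for 18 of 35 target genes and lower for 3 (14 and 4 scaled), and CD11b+ healthy cells were higher than CD103+ healthy cells for 21 and lower for 5 (13 and 11 scaled). Over all genes 9.66% were higher and 8.21% lower between the NTN subsets (5.52% and 7.28% scaled), and 25.4% and 24.5% between the healthy subsets (4.65% and 71.2% scaled). Ier3, an early response gene, was higher by 2.16 ± 0.13 in NTN and 2.22 ± 0.13 in healthy CD11b+ cells (limma adjusted p = 4.05e-08 and 2.52e-08; 1.98 and 0.86 scaled). Tnip3, whose product binds A20, was higher by 4.83 ± 0.23 in NTN and 6.91 ± 0.23 in healthy kidneys (4.65 and 5.55 scaled). Map3k14, the kinase NIK of the noncanonical branch in which Relb and Nfkb2 act, was higher by 1.23 ± 0.17 in NTN kidneys (adjusted p = 0.000161; 1.04 scaled, adjusted p = 0.00328) and by 1.73 ± 0.17 in healthy kidneys (0.37 scaled, not called). Tlr3, a receptor for double-stranded RNA and itself 1 of 9 listed markers of cDC1, the dendritic cell type that usually carries CD103, was lower in CD11b+ cells by -5.57 ± 0.23 in NTN and -3.26 ± 0.23 in healthy kidneys.

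**Figure D5:**
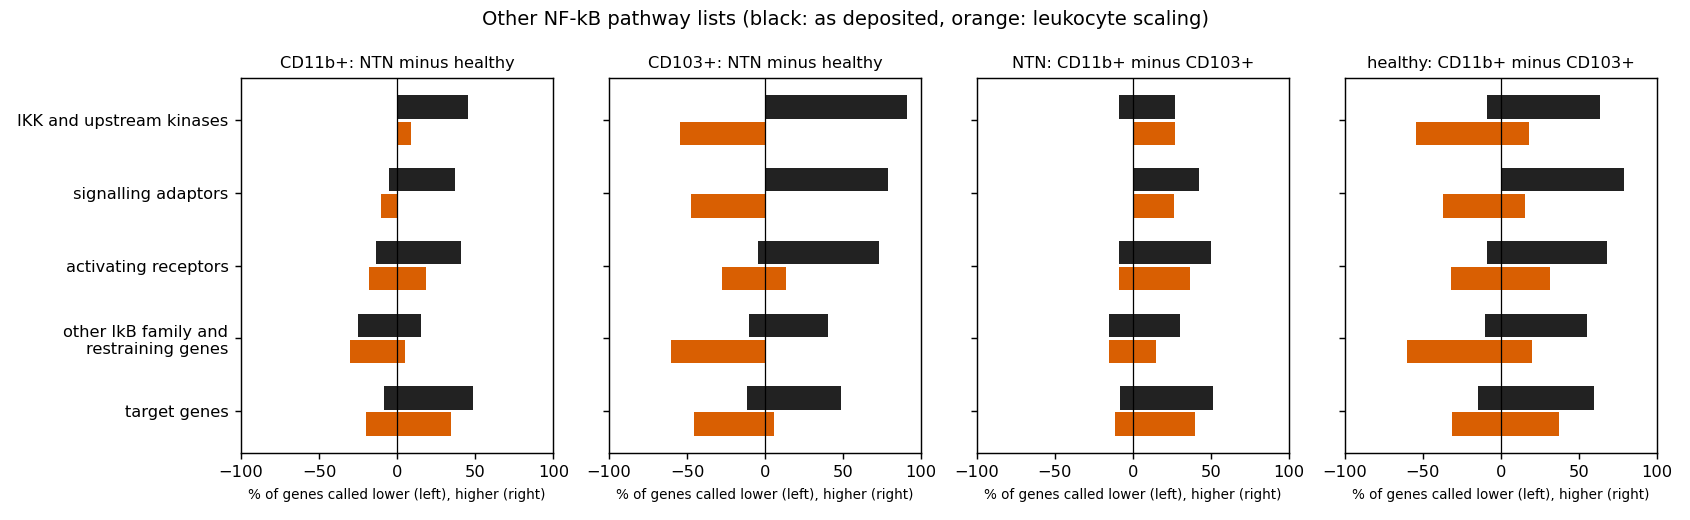
Percentage of the tested genes of 5 NF-kB pathway lists (rows) called lower (bars to the left) or higher (bars to the right) at a limma adjusted p under 0.05 in 4 comparisons, on the deposited scale (black) and with leukocyte scaling (orange). For CD103+ cells in nephritis 10 of 11 kinase genes are higher as deposited and 6 are lower with leukocyte scaling; between the subsets in NTN kidneys both scales put more target genes higher than lower, 18 against 3 and 14 against 4.

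Over the 12 libraries, which share depth and composition differences between the groups, the gene closest to Nfkbia in its log2 values was Zfp36, an immediate-early gene whose product destabilises cytokine mRNAs (Pearson r = 0.997). Zfp36 averaged 2662 CPM in CD11b+ NTN, 4838 in CD11b+ healthy, 1297 in CD103+ NTN and 835 in CD103+ healthy libraries, the same order of groups as Nfkbia. Nfkbiz was closest to Slamf9 (r = 0.993), Irf4 (r = 0.989) and Tnip3 (r = 0.989), all higher in CD11b+ cells. Tnfaip3 was closest to Ms4a6c (r = 0.996), Nfkbie to S100a6 (r = 0.992), Nfkb1 to Irf2 (r = 0.994), Relb to Tmem71 (r = 0.988), Nfkb2 to Cotl1 (r = 0.983), Rela to Mfng (r = 0.981), Rel to Kdm6a (r = 0.977) and Nfkbib to Tfeb (r = 0.972). Within the 10, Nfkb1 and Tnfaip3 were closest to each other (r = 0.987), and Rel and Nfkbib ran apart (r = -0.19).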

How the data were processed

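RNA was sequenced as 50-base single reads from 12 libraries, 3 per group, after collagenase digestion, CD45 bead enrichment, sorting and low-input amplification, per the labels' protocols. Per the submitters' processing notes the tools were STAR 2.0.4b, Subread, featureCounts 1.4.5 and edgeR, and no source used here names the genome build. The values are log2 CPM as deposited by the authors, and they fit whole reads plus an offset of 0.5 over a scaled library size (all values whole within 0.05 reads), an inference from the values. Of 26281 lines 160 repeats were dropped, and 26022 of 26121 IDs matched GENCODE M21, which gave exon lengths.

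The log2 values were tested with limma 3.58.1 (R 4.3.3), 1 mean per group over all 12 libraries, with a trended and robust variance, and p-values were adjusted by Benjamini and Hochberg's method over 14180 genes, with a threshold of 0.05. Genes under 1 CPM in more libraries than the filter allowed (11941) were left out. No count test was run, since the deposited unit is log2. All 5 comparisons share libraries or groups. Each mouse gave a library of both subsets, but no label ties a library's number to its mouse, so the fit has no term for it. Alternatives were pseudocounts of 0.25 and 4 CPM, no filter, a filter at 5 CPM, median centring, leukocyte scaling, fits of the compared groups alone, a replicate block, and each library left out; a block within each state was added after seeing the data. All 10 genes are reported in each comparison. From each pathway list at most 3 genes per comparison with the smallest adjusted p could be named, and for each member its 3 closest genes by Pearson r. The members and lists were chosen with earlier results of these data known. The scripts were tested on simulated data. The SDs given are between the libraries of a group, and the SEs come from the limma fit over libraries. Other tools were Python 3.11.15, numpy 2.4.6, pandas 2.3.3, scipy 1.17.1 and matplotlib 3.10.9.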

Additional observations from a re-analysis of the deposited data

Results flagged for a closer look

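For 8 of the 10 genes the response to nephritis differed between the subsets by a test of the difference itself (limma, adjusted over all tested genes), against 17.7% of all tested genes lower and 17.7% higher. The CD11b+ response minus the CD103+ response was -1.90 log2 units for Nfkbia, -1.77 for Tnfaip3, -1.71 for Rel, -1.57 for Nfkb2, -1.56 for Nfkb1, -1.37 for Nfkbiz, -1.27 for Nfkbie and -0.60 for Rela. With leukocyte scaling Nfkbia alone was called (-0.73), against 1.41% of all genes lower and 44.0% higher, and Rela stood on the other side of 0 (0.57). In 12 fits that each left out 1 library, Rel lost the call in 4 and Rela in 7. The 2 responses rest on different groups of healthy libraries, and the CD103+ healthy ones had the highest tubule and the lowest leukocyte levels, whose part in these differences was not tested.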

How the results depend on the processing

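Of 1020 refits of single genes, 962 kept their direction and their side of the threshold, 27 no longer passed, 14 newly passed and 17 changed direction. Of these, 15 came with leukocyte scaling: in CD103+ NTN against healthy Nfkb2 (-0.65), Rela (-0.82), Relb (-0.71), Nfkbia (-0.87), Nfkbie (-0.14) and Nfkbiz (-0.45), in CD11b+ NTN against healthy Nfkb1 (-0.30), Rela (-0.25), Nfkbie (-0.24) and Tnfaip3 (-0.030), none of them called on either scale, in healthy CD11b+ against CD103+ cells Rela (-0.52) and Nfkbib (-0.46), and in the difference of responses Rela (0.57), Relb (0.22) and Nfkbib (0.46). Leaving out 1 library turned 2 differences that were not called: Relb in CD11b+ NTN against healthy ranged from -0.14 to 0.0053, and Rel between the NTN subsets ranged from -0.63 to 0.088. By its construction leukocyte scaling shifts all genes of a library alike. With it, of the 10 genes 1 was higher and 5 were lower in CD103+ NTN (2.67% and 71.3% of all genes), and 4 were lower in CD11b+ NTN (20.3%). Between healthy subsets 7 were higher in CD11b+ cells and 1 lower (4.65% and 71.2%), between NTN subsets 5 were higher (5.52%), and 1 was lower in the difference (1.41%). Over all genes 10763 were called between the healthy subsets, against 7084 as deposited. In fits of the compared groups alone, 1 of the 10 was higher in CD11b+ NTN, and 4062 genes over all were called between the NTN subsets, against 2534; the cause was not tested. Leaving out 1 library gave 0 to 1 of the 10 higher in CD11b+ NTN.

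In their deviations from the group means, same-numbered libraries of the subsets correlated at -0.014, 0 and -0.154 in healthy and at 0.066, 0.052 and 0.151 in NTN kidneys. Different-numbered ones correlated at -0.1 to 0.115 in healthy and at -0.136 to 0.074 in NTN kidneys. Deviations from a mean of 3 libraries sum to 0, so the different-numbered values are no independent reference for the same-numbered ones. With 3 libraries a group, these values do not settle whether the numbers mark pairs. The numbers were not taken as pairs because no label ties them to a mouse. The replicate block changed none of the 50 member results, and 9 of the 10 genes stayed higher in CD103+ NTN. A block within each state lost Rela in the difference of responses (-0.60, limma adjusted p = 0.0593). A pseudocount of 4 CPM moved 10 within-library differences by at least the larger group SD, and 30 moved by less. Among the 10, Nfkb2 minus Rela in CD103+ cells, NTN against healthy, went to -0.22, where it had been 0.18. In CD103+ healthy libraries Relb and Nfkb2 had the fewest reads of the 10, which limits the precision of their differences.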
